A study of Mus musculus with 6 samples.

Results

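The keratin genes were taken as every row of the gene count table whose identifier maps to a mouse symbol made of Krt and digits alone. Of 53700 genes in the table, 50 carried such a symbol, and the 30 with at least 30 counts summed over the 6 libraries are described here. Krt88 (49 counts) and Krt79 (42) lay just inside that minimum and Krt27 (29) and Krt86 (26) just outside. In all, 15 had between 1 and 29 counts, and 5 (Krt9, Krt71, Krt72, Krt74 and Krt77) had 0. Keratins with a letter in the symbol, such as Krt6a, fall outside that rule and are given by name where they are used.

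The libraries were made from bulk colon tumours, pinched off the muscle beneath, of mice in 2 groups of 3, all fed 100 mg/kg doxycycline in food pellets. The APC-WT mice expressed endogenous Tcf7l2, were cachectic and had been on doxycycline for 10 days, whereas the APC-KI mice had repressed Tcf7l2, had recovered and had been on doxycycline for 6 weeks. Genotype, time on the drug and cachexia state therefore cannot be told apart, the repression was systemic rather than limited to tumour cells, and the Apc alleles are not described in the sources used here. Nothing in the labels says that samples of a group came from separate animals, so p values measure the spread between these samples only.

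Keratins form the intermediate filaments of epithelial cells. A filament is built from pairs of an acidic type I and a basic type II keratin, so neither type polymerises alone. The simple epithelium of the intestine uses type II Krt8 with type I Krt18, Krt19 and, in differentiated cells, Krt20, whereas stratified epithelia use Krt5 with Krt14 in basal cells and Krt4 with Krt13 or Krt1 with Krt10 above them. Hair and nail keratins such as Krt34, Krt35 and Krt84 are a further branch of both types.

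Tcf7l2, the gene repressed by design, stood at 44.1, 43.8 and 35.6 CPM (counts scaled to a common library size) in APC-WT and at 4.48, 6.90 and 5.34 CPM in APC-KI replicates 1 to 3, matching the labels. Libraries held between 51777342 and 63921108 counts. Counts of Y-linked genes totalled 19164 in APC-WT replicate 1, 16055 in APC-WT replicate 2 and 0 in the other 4 libraries, so that sex runs partly with the groups. Each keratin call is therefore also given over the 4 libraries with 0 Y-linked counts. An epithelial origin was checked with markers: all 22 genes of a pan-epithelial list (among them Epcam, Cdh1 and Vil1) were tested, 5 rose and 2 fell, and their sum lay between 6627 and 8374 CPM. Cdx2, the intestinal homeobox factor of that list, stood at 56.5 and 51.6 CPM in APC-KI replicates 1 and 2 but at 5.34 CPM in APC-KI replicate 3, below the 17.3 to 34.0 CPM of the APC-WT libraries.

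The keratins filled 0.619 ± 0.0403% of all counts in APC-WT and 0.715 ± 0.0280% in APC-KI tumours (SD, n = 3 each). Their summed level was 5588, 5842 and 6413 CPM in APC-WT tumours, against 7848, 7615 and 6914 CPM in APC-KI libraries, and the groups did not overlap. Per pan-epithelial count there were 0.870 ± 0.0365 keratin counts in APC-WT and 0.953 ± 0.0198 in APC-KI. In bulk samples, more cells of a type and more RNA per cell cannot be told apart. Immune lists moved as well: 7 of the 9 genes marking B and plasma cells rose (sums of 1031 to 1528 CPM in APC-WT, 6082 to 14760 CPM in APC-KI), of 8 T cell markers 6 rose and 0 fell, and all 8 mast cell markers fell (155 to 894 against 19.1 to 37.4 CPM). Their part in the keratin total was not tested. The 6 most abundant members, Krt8, Krt19, Krt18, Krt7, Krt20 and Krt23, held between 92.5% and 98.1% of keratin counts in each library.

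**Figure D1:**
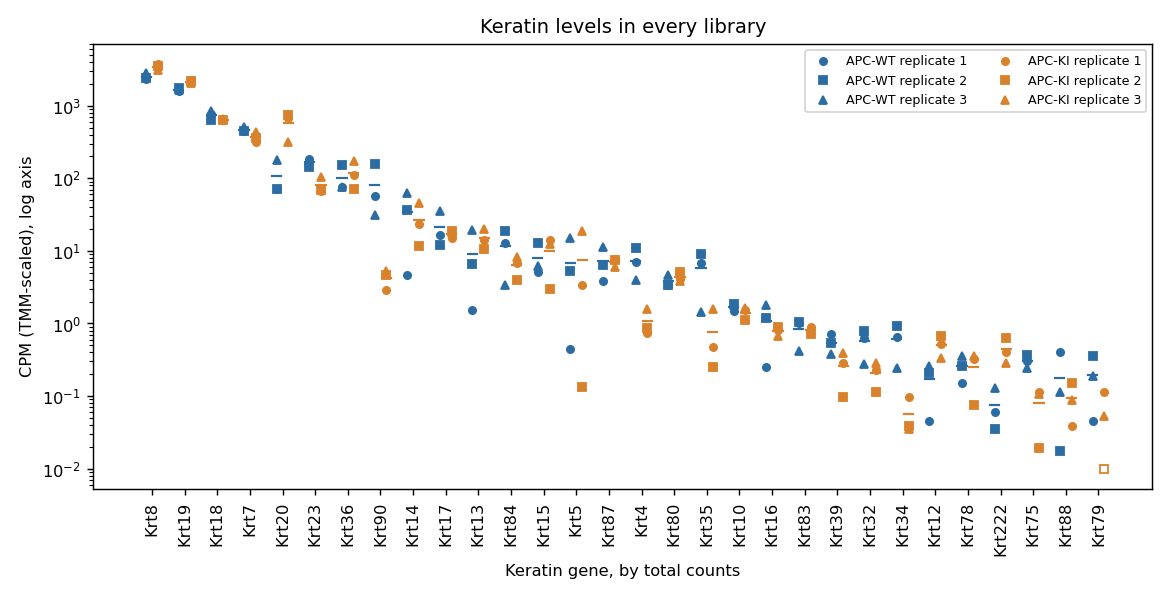
Level of each of the 30 keratins in CPM (log axis) in the 6 libraries, with APC-WT in blue, APC-KI in orange, a marker shape for each replicate and a bar at the group mean. An open marker at the lower edge stands for 0 counts, as for Krt79 in APC-KI replicate 2. Krt90 and Krt4 lie lower in all 3 APC-KI libraries, and Krt20 higher.

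Of the 30 keratins, 28 passed the filter on low counts and were tested, while Krt88 and Krt79 were not. In the edgeR fit of all genes, 4 were called higher in APC-KI (Krt8, Krt19, Krt20 and Krt222) and 4 lower (Krt4, Krt23, Krt34 and Krt90) at an adjusted p under 0.05. Over all 19127 genes tested, 12.5% were called higher and 7.63% lower, or 20.1% in all, against 14.3% of the tested keratins in each direction. For 11 of the 28 (39.3%) the groups had no overlap in CPM, 5 higher and 6 lower, against 44.5% of all genes (23% higher and 21.5% lower). Though the share called lower was above the background, it rests on 4 genes, and the share not overlapping was below the background. The median log2 change of the tested keratins was −0.25, against −0.016 for all genes. Of the tested keratins 3 (Krt34, Krt222 and Krt75) passed the filter through 1 group alone, so these had to differ to be tested at all. Without them, 3 keratins were higher and 3 lower.

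The number of calls changed when 1 library was left out. Without APC-WT replicate 1, APC-WT replicate 2, APC-KI replicate 1 or APC-KI replicate 2, 0 keratins were called higher by edgeR, with 4 or 5 at an unadjusted p under 0.05. Log2 changes in those fits were 0.35 to 0.419 for Krt19 and 0.385 to 0.434 for Krt8, against 0.384 and 0.446 with all libraries. Over all genes, 788 to 1567 were called higher in them, against 2388. DESeq2 and limma-voom each called 4 higher over all libraries. The number called lower was 1 without APC-KI replicate 1 or APC-KI replicate 2 (Krt90 in both), and 7 without APC-WT replicate 3. In the 4 libraries with 0 Y-linked counts, with a lone APC-WT library assumed to vary like the rest, 0 were higher (1 at an unadjusted p under 0.05) and 2 lower, namely Krt90 and Krt17. Scaling also set the split: 3 were higher and 6 lower with library totals alone, and 2 higher and 7 lower when scaled to the pan-epithelial genes, where 41% and 33.1% of all calls were higher against 62.1% with the TMM factors (trimmed mean of M values) used here. Those scalings moved the median of all genes by −0.116 and −0.194.

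**Figure D2:**
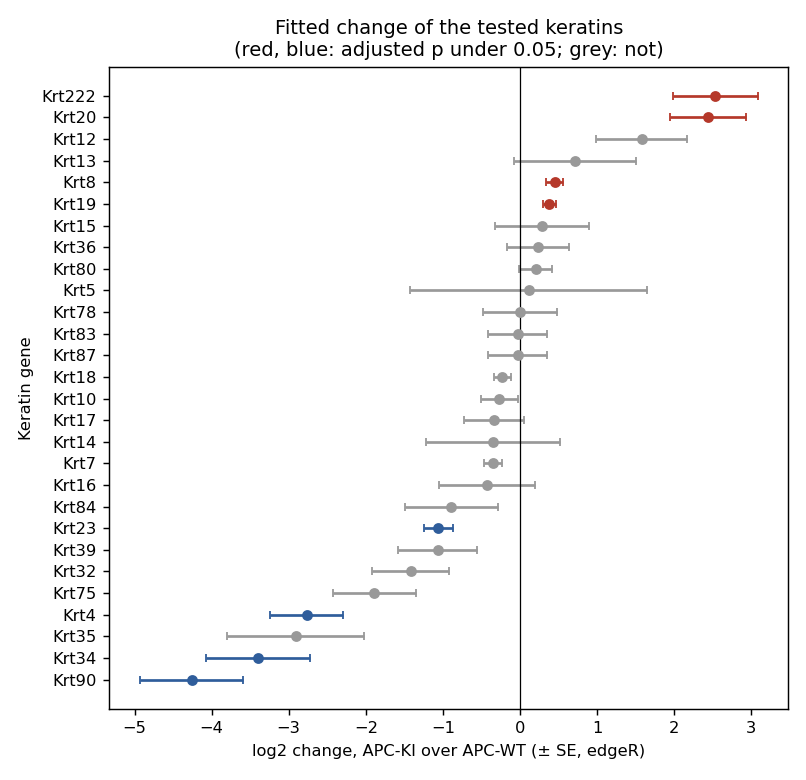
Fitted log2 change of the 28 tested keratins, APC-KI over APC-WT, with its standard error from edgeR; red and blue points passed the threshold and grey points did not. The 4 calls above 0 are Krt222, Krt20, Krt8 and Krt19, and the 4 below are Krt23, Krt4, Krt34 and Krt90.

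Krt8 (ENSMUSG00000049382), the main type II keratin of simple epithelia, stood at 2354, 2377 and 2821 CPM in APC-WT tumours, against 3721, 3502 and 3066 CPM in APC-KI replicates 1 to 3. All APC-KI libraries were above all APC-WT libraries, although APC-WT replicate 3 and APC-KI replicate 3 lay close to each other. Krt8 rose 1.36-fold (log2 change 0.45 ± 0.11 SE, edgeR adjusted p = 0.0376). It did not pass with library totals alone or against the pan-epithelial genes (log2 change 0.33 and 0.25, adjusted p = 0.0527 and 0.0725), nor in the libraries with 0 Y-linked counts (0.28, adjusted p = 0.373). Of the 50-base windows of its transcript 29.7% also occur in other annotated transcripts, mainly the pseudogene Krt8-ps, which held 3.65 ± 0.693 CPM in APC-WT tumours, against 4.30 ± 0.289 CPM in APC-KI (mean ± SD of 3).

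Krt19 (ENSMUSG00000020911), a type I keratin without the tail domain of its relatives, had 1569, 1729 and 1630 CPM in APC-WT tumours, against 2239, 2157 and 2035 CPM in APC-KI. The groups were well apart, and the spread within each was small. Krt19 rose 1.31-fold (log2 change 0.38 ± 0.08 SE, edgeR adjusted p = 0.0219), and against the pan-epithelial genes its log2 change was 0.19 (adjusted p = 0.106). In the libraries with 0 Y-linked counts its adjusted p was 0.189.

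Krt18 (ENSMUSG00000023043), the classical partner of Krt8, did not pass. It stood at 756, 637 and 834 CPM in APC-WT tumours, and at 626, 634 and 646 CPM in APC-KI. APC-WT replicate 2 lay within the APC-KI range, so the groups overlapped (log2 change −0.23 ± 0.11 SE, edgeR adjusted p = 0.174). Against the pan-epithelial genes the log2 change was −0.42 (adjusted p = 0.0391). Counts of Krt8 per count of Krt18 were 3.11, 3.73 and 3.38 in APC-WT and 5.94, 5.53 and 4.75 in APC-KI libraries, a description of these libraries with no test. Krt8 and Krt18 are the last keratins of the chromosome 15 cluster in RefSeq's gene order.

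Krt7 (ENSMUSG00000023039), a type II keratin of ducts and glands, had 454, 444 and 504 CPM in APC-WT tumours, against 315, 357 and 427 CPM in APC-KI. Every APC-KI library was lower, with APC-KI replicate 3 close to the APC-WT values. Its log2 change was −0.35 ± 0.12 SE (edgeR adjusted p = 0.0872). It passed with library totals alone (−0.46, adjusted p = 0.0478), against the pan-epithelial genes (−0.53, adjusted p = 0.0431) and without APC-KI replicate 3 (−0.48, adjusted p = 0.0256).

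Krt20 (ENSMUSG00000035775), which marks differentiated enterocytes and goblet cells, and Krt23 (ENSMUSG00000006777), a type I keratin of simple epithelia, are next to each other on chromosome 11. They changed in opposite directions. Their RefSeq promoters (build GRCm38.p6, 250 bases before to 50 after the transcription start, minus strand, 5′ to 3′) are shown because of that, at chr11:99438104-99438403 for Krt20 and chr11:99493071-99493370 for Krt23. Capitals mark TATAAA, which in Krt20 begins 29 bases before the start and is not found in the Krt23 window.
Krt20: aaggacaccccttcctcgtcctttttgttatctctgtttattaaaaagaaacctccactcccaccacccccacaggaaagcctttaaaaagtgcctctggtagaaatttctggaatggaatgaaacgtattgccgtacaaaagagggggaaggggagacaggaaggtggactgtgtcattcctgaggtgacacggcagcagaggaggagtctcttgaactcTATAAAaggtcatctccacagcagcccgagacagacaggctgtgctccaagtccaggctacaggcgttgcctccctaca
Krt23: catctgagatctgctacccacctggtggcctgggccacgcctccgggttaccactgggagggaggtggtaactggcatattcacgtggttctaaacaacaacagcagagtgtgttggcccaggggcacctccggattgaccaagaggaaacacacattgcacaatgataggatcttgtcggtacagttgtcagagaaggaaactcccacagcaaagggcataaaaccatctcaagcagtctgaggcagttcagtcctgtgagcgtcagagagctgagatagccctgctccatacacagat

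Krt20 stood at 71.3, 71.8 and 178 CPM in APC-WT tumours, and at 671, 754 and 316 CPM in APC-KI replicates 1 to 3. Every APC-KI library was higher, with APC-WT replicate 3 and APC-KI replicate 3 nearest to each other. Krt20 rose 5.43-fold, from 107 ± 61.3 to 580 ± 232 CPM (SD, n = 3 each, log2 change 2.44 ± 0.49 SE, edgeR adjusted p = 0.0213). Leaving out APC-WT replicate 1, APC-WT replicate 2, APC-KI replicate 1 or APC-KI replicate 2 gave log2 changes between 2.21 and 2.33 that did not pass (adjusted p between 0.0597 and 0.074). In the libraries with 0 Y-linked counts it was 1.70 (adjusted p = 0.241). With no filter on low counts the adjusted p was 0.0883.

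Markers of the differentiated cells that carry Krt20 were counted beside it. Of 14 absorptive colonocyte markers, all tested, 5 rose, such as the antibacterial surface protein Lypd8 (3.96-fold) and the brush border protein Cdhr5 (2.19-fold), 1 fell, the sodium exchanger Slc9a3, and 8 did not pass. Their median log2 change was 1.31. Their sum lay between 3446 and 3844 CPM in APC-WT tumours, against 8988 to 11115 CPM in APC-KI, of which Lypd8 alone held 1636 ± 99.9 and 6480 ± 682 CPM. Of 10 goblet cell markers 5 rose and 0 fell, among them Tff3 (2.90-fold) and the mucin Muc2 (2.11-fold), with sums of 2322 to 3382 CPM in APC-WT tumours, against 4508 to 6761 CPM in APC-KI. APC-KI replicate 3 was the lowest APC-KI library for Krt20 and for both sums. There Lypd8 held 6650 of the 8988 CPM of the colonocyte sum. The 5 colonocyte markers called higher were above their APC-WT range in that library, and the other colonocyte markers were within or below theirs. Of 10 intestinal stem cell markers 0 rose and 7 fell, among them Lgr5 (116 ± 11.4 against 57.4 ± 3.37 CPM), with a median log2 change of −1.09. The part of these shifts in the Krt20 result was not tested.

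Krt23 had 184, 143 and 171 CPM in APC-WT tumours, against 67.3, 68.6 and 104 CPM in APC-KI. The groups did not overlap, and again APC-KI replicate 3 was closest to APC-WT. Krt23 fell to 48.0% of the APC-WT level (log2 change −1.06 ± 0.19 SE, edgeR adjusted p = 0.0155). Without APC-KI replicate 1 or APC-KI replicate 2 its adjusted p was 0.0583 and 0.0549, and in the 4 libraries with 0 Y-linked counts its log2 change was −1.10 (adjusted p = 0.129). There were 0.386, 0.501 and 1.04 counts of Krt20 per count of Krt23 in APC-WT and 9.97, 10.99 and 3.05 in APC-KI libraries, so the more abundant of these neighbours in counts was Krt23 in APC-WT replicates 1 and 2 and Krt20 in the other 4 libraries.

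Levels of different keratins were compared per length, as RPKM, the CPM divided by the length in kilobases of the longest protein-coding transcript. In APC-WT the order was Krt8 (1286 ± 134 RPKM), Krt19 (1042 ± 51.2), Krt18 (517 ± 69.1), Krt7 (114 ± 7.83), Krt23 (106 ± 13.4), Krt36 (60.8 ± 27.3), Krt20 (55.5 ± 31.8) and Krt90 (32.2 ± 26.3). Krt7 and Krt23 did not differ beyond their spread, nor did Krt36, Krt20 and Krt90. In APC-KI the order was Krt8 (1752 ± 170 RPKM), Krt19 (1360 ± 65.2), Krt18 (442 ± 6.92), Krt20 (301 ± 121), Krt7 (89.5 ± 13.8), Krt36 (71.4 ± 31.0) and Krt23 (51.0 ± 13.2), where Krt7 and Krt36, and Krt36 and Krt23, overlapped within 1 SD. Krt90 stood at 1.69 ± 0.497 RPKM. The transcript used for Krt7 has 4094 bases and its open reading frame 1374, so the place of Krt7 in the order depends on the transcript chosen.

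Summed over members, type II was 0.772, 0.775 and 0.821 of type I RPKM in APC-WT and 0.844, 0.813 and 0.791 in APC-KI libraries, and the groups overlapped. Within type I, the share of Krt18 was 28.2 ± 3.20% of RPKM in APC-WT and 19.5 ± 1.34% in APC-KI. That of Krt20 was 2.98 ± 1.54% and 13.1 ± 4.82%, and that of Krt23 5.82 ± 0.861% and 2.27 ± 0.720%. Krt19 held 57.0 ± 3.64% and 59.9 ± 0.748% (SD, n = 3 each). Within type II, Krt8 made up 88.7 ± 2.04% in APC-WT and 94.4 ± 1.502% in APC-KI, and Krt7 7.89 ± 0.292% and 4.89 ± 1.18%.

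**Figure D3:**
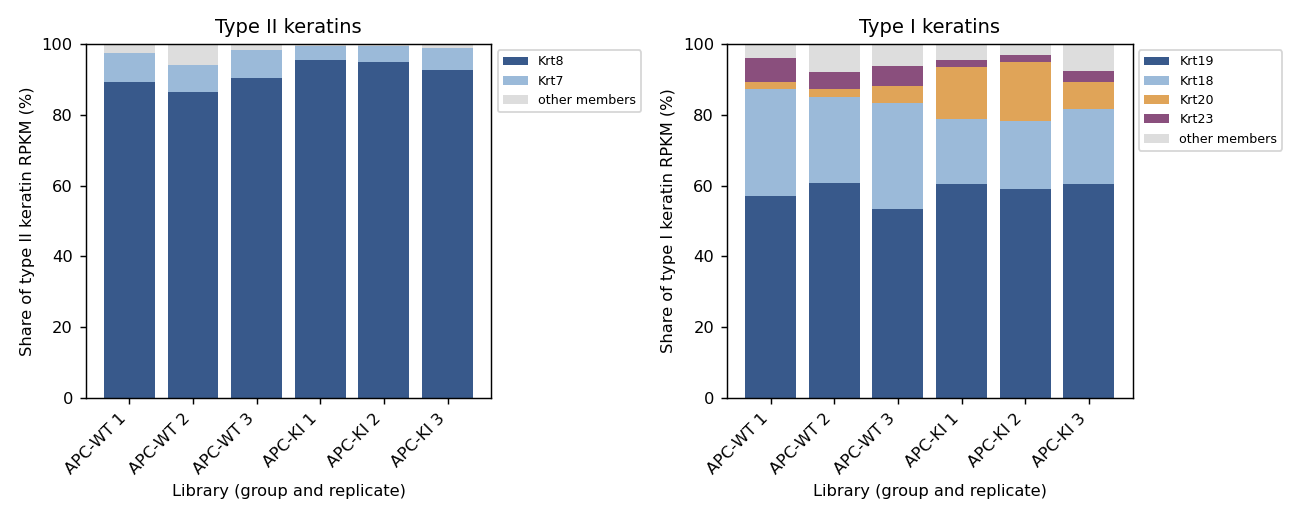
Share of each main keratin in the summed RPKM of its type (percent, stacked to 100) in the 6 libraries, with type II on the left and type I on the right. Krt20 is between 7.68% and 16.9% of type I RPKM in APC-KI libraries and between 2.06% and 4.75% in APC-WT libraries.

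Among the less abundant members, Krt90, Krt4 and Krt34 were called lower and Krt222 higher, and the rest did not pass. Krt34 passed the filter through APC-WT alone. The promoters of Krt90 and Krt34 are shown because both genes fell and both windows hold a core motif of the TCF/LEF family, to which Tcf7l2 belongs. It was searched on both strands as AACAAAG, with the first bases AA or any of AT, TA and TT in their place. They are RefSeq sequences of GRCm38.p6 on the minus strand, 5′ to 3′, at chr15:101562901-101563200 for Krt90 and chr11:100041505-100041804 for Krt34. Capitals mark the motif CTTTGAT or CTTTGAA, and TATAAA in Krt34.
Krt90: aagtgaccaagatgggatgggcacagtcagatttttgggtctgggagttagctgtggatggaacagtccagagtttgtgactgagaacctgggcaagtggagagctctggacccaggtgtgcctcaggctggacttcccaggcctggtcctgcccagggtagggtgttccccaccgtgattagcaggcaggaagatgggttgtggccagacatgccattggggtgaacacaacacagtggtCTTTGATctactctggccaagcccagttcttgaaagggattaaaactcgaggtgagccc
Krt34: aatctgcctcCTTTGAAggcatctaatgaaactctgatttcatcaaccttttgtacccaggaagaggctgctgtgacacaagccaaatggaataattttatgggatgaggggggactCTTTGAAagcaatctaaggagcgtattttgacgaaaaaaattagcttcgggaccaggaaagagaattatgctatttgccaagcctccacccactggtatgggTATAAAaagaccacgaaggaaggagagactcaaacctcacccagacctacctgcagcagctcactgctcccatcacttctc
Of the 19 members with a promoter in that table, 4 (Krt39, Krt34, Krt32 and Krt90) held such a motif, while 16.9% of all 32851 promoters of that length did. Krt39 and Krt32 were not called. Among the other keratins called lower, Krt23 held no such motif in its window and Krt4 had no promoter in that table. Of those called higher, Krt8 and Krt20 held no such motif, and Krt19 and Krt222 had no promoter there. TATAAA on the gene's own strand began 20 to 40 bases before the start in 5 of the 19 (Krt10, Krt12, Krt20, Krt34 and Krt32) and in 1.99% of all promoters. The 2 kinds of motif do not overlap in these windows, and a match is a description of letters, not of binding.

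Krt90 (ENSMUSG00000048699), a type II keratin, showed the largest fitted decrease among the tested keratins. It had 57.1, 157 and 30.7 CPM in APC-WT tumours, against 2.88, 4.59 and 5.34 CPM in APC-KI. The APC-WT libraries differed widely, yet the lowest of them was above every APC-KI library. Krt90 was 19.1-fold lower in APC-KI (log2 change −4.26 ± 0.67 SE, edgeR adjusted p = 0.0110). It passed without any 1 library (log2 change between −4.65 and −3.36) and in the 4 libraries with 0 Y-linked counts (−2.85, adjusted p = 0.0312), but not with no filter on low counts (adjusted p = 0.0503).

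Krt4 (ENSMUSG00000059668), the partner of Krt13 in stratified mucosa such as the oesophagus, had 7.05, 11.02 and 3.93 CPM in APC-WT tumours, against 0.749, 0.880 and 1.58 CPM in APC-KI. All APC-KI libraries were lower. Krt4 was 6.85-fold lower (log2 change −2.77 ± 0.47 SE, edgeR adjusted p = 0.0127). Without APC-KI replicate 1 or APC-KI replicate 2 the adjusted p was 0.0558 and 0.0526, and in the 4 libraries with 0 Y-linked counts the log2 change was −1.87 (adjusted p = 0.106). Its partner Krt13 did not follow, with 1.53, 6.61 and 19.2 CPM in APC-WT tumours, against 13.9, 10.5 and 20.3 CPM in APC-KI (log2 change 0.71 ± 0.79 SE, adjusted p = 0.544).

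Krt34 (ENSMUSG00000043485), a type I hair keratin, held 44, 53 and 13 counts in APC-WT and 5, 2 and 2 counts in APC-KI libraries. The APC-KI libraries were lower, at levels near single counts. Its log2 change was −3.40 ± 0.67 SE (edgeR adjusted p = 0.0187), with adjusted p = 0.062, 0.0514 and 0.0724 without APC-WT replicate 2, APC-KI replicate 1 and APC-KI replicate 2, and −2.07 (adjusted p = 0.238) in the libraries with 0 Y-linked counts. Of its 50-base windows 33.1% occur in other transcripts, mainly Krt31, Krt33a and Krt33b, so its counts may be split with them. These held 21, 19 and 34 counts over all libraries, of which 0, 0 and 3 came from APC-KI.

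Krt35 and Krt84, further hair and nail keratins, and Krt32 and Krt75 of the hair follicle did not pass. Neither did Krt36, Krt83 and Krt87, given below, whose closest keratins in sequence were the hair-type Krt31, Krt81 and Krt86. Their log2 changes were 0.23, −0.03 and −0.03. Krt35 had 6.85, 9.07 and 1.42 CPM in APC-WT tumours, against 0.480, 0.249 and 1.57 CPM in APC-KI, so APC-WT replicate 3 lay among the APC-KI libraries (log2 change −2.91 ± 0.89 SE, edgeR adjusted p = 0.0638). It passed without APC-WT replicate 3 (−3.37, adjusted p = 0.0316), without APC-KI replicate 3 (−3.995, adjusted p = 0.0331) and with DESeq2 (adjusted p = 0.0173), and was −0.89 in the libraries with 0 Y-linked counts. Krt84 had 13.0, 18.8 and 3.35 CPM in APC-WT tumours, against 6.78, 3.998 and 8.22 CPM in APC-KI, again with APC-WT replicate 3 lowest. Its log2 change of −0.89 (adjusted p = 0.321) was 0.92 in the libraries with 0 Y-linked counts and −1.33 without APC-WT replicate 3 (adjusted p = 0.0385). Krt32 and Krt75 stood below 1 CPM, with log2 changes of −1.42 and −1.89 (adjusted p = 0.0877 and 0.0521). Krt75 passed with DESeq2 and limma-voom (adjusted p = 0.0481 and 0.0491). It met the filter on low counts through APC-WT alone.

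Some keratins shared a pattern among single libraries, and were picked for it after their values were seen. Within APC-WT, the 6 genes Krt90, Krt84, Krt35, Krt34, Krt4 and the desmoglein Dsg4 all ranked replicate 2 highest and replicate 3 lowest. Replicate 3 is the APC-WT library with 0 Y-linked counts. Krt32, Krt75 and Krt83 had that order too. Krt36 (75.1, 154 and 75.5 CPM in APC-WT tumours) and Krt87 (3.84, 6.3 and 11.4 CPM) did not. Dsg4, the desmosomal cadherin of hair and nail, had 14.7, 32.8 and 5.03 CPM in APC-WT tumours, against 1.88, 0.593 and 3.13 CPM in APC-KI, and fell (log2 change −3.22, edgeR adjusted p = 0.0422). Of 12 listed hair follicle genes, 6 were tested, 0 rose and 2 fell, with a median of −0.64. Those were the homeobox factors Dlx3 (15.8 ± 6.31 against 1.91 ± 1.01 CPM, adjusted p = 0.0135) and Msx2 (0.561 ± 0.242 against 0.0561 ± 0.0194 CPM, adjusted p = 0.0112). Summed, the list lay between 51.5 and 88.4 CPM in APC-WT tumours, against 23.4 to 45.1 CPM in APC-KI. Most of that sum was Lef1, a factor of the TCF/LEF family, which did not pass (edgeR adjusted p = 0.0861). Lef1 had 62.2, 47.8 and 37.9 CPM in APC-WT tumours, against 30.3, 19.3 and 36.3 CPM in APC-KI. Hoxc13, Krtap5-1 and Krtap5-2 of the list had 0 counts in every library. Foxn1, Tchh and Padi3 were detected, at 2.13, 1.96 and 0.464 CPM in APC-WT tumours, against 2.98, 1.38 and 0.350 CPM in APC-KI (means). They did not pass (log2 change 0.49, −0.50 and −0.41, edgeR adjusted p = 0.537, 0.402 and 0.694). The part of hair follicle cells and of the Y-linked split in these results was not tested.

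**Figure D4:**
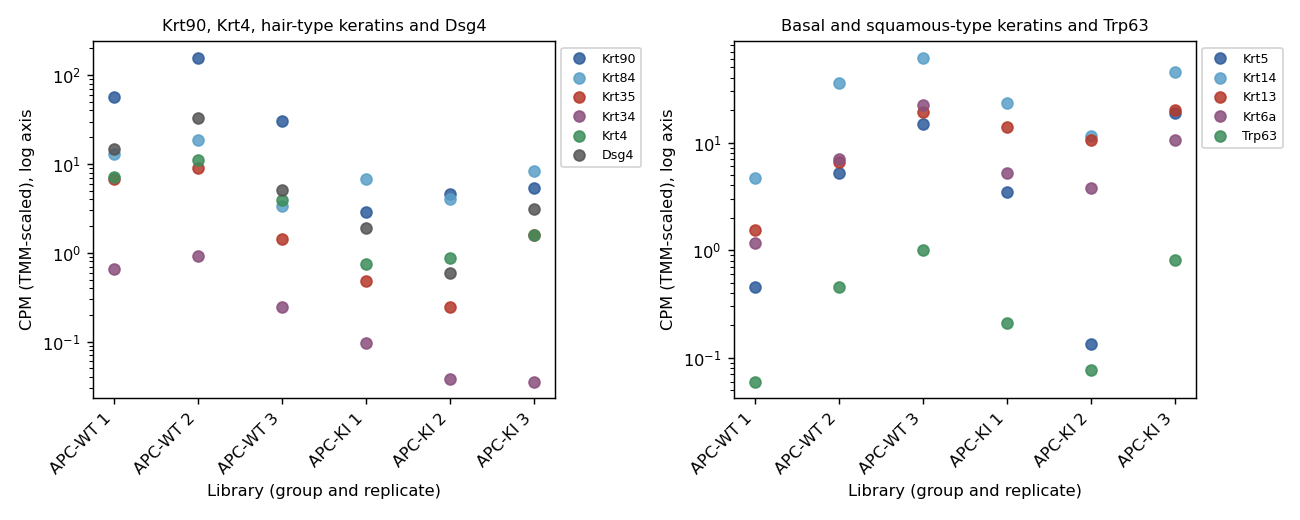
CPM (log axis) in each of the 6 libraries for Krt90, Krt84, Krt35, Krt34, Krt4 and Dsg4 on the left and for Krt5, Krt14, Krt13, Krt6a and Trp63 on the right. On the left, APC-WT replicate 3 is the lowest APC-WT library for every gene. On the right, the groups overlap for every gene, with Krt5 from 0.134 to 18.7 CPM within APC-KI.

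Apart from Krt4, called lower above, the basal and squamous keratins varied mainly among single libraries. Krt5, the type II keratin of basal cells, had 0.450, 5.26 and 14.9 CPM in APC-WT tumours, against 3.44, 0.134 and 18.7 CPM in APC-KI. Its partner Krt14 had 4.66, 36.2 and 61.7 CPM in APC-WT tumours, against 23.5, 11.6 and 45.4 CPM in APC-KI. Neither passed (log2 change 0.11 ± 1.54 and −0.35 ± 0.87 SE, edgeR adjusted p = 0.965 and 0.794). Trp63, a transcription factor of basal cells, was at 0.0600, 0.457 and 1.01 CPM in APC-WT tumours, against 0.211, 0.0765 and 0.818 CPM in APC-KI.

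Krt5, Krt14, Krt13, Krt6a and Trp63, grouped here with their values known, ranked the libraries alike. APC-WT replicate 3 and APC-KI replicate 3 were highest and APC-WT replicate 1 and APC-KI replicate 2 lowest in their groups. Krt6b had the same order, but other such keratins did not. Krt15 was highest in APC-WT replicate 2 and APC-KI replicate 1. Krt16 and Krt17 were highest in APC-KI replicate 2, and Krt4 was lowest in APC-WT replicate 3. Krt6a, a keratin induced by stress, had between 1.15 and 22.3 CPM, and its relative Krt6b between 0.0300 and 3.80 CPM. Of 25 listed squamous genes 18 were tested, 4 rose and 1 fell. Summed, the list was 174 to 355 CPM in APC-WT tumours, against 594 to 648 CPM in APC-KI. Most of it was Ly6d (25.6 ± 11.2 against 180 ± 28.3 CPM), Sfn (91.0 ± 29.9 against 189 ± 39.3 CPM) and Serpinb5 (mean ± SD). Serpinb5, at 85.1 ± 31.4 against 120 ± 14.9 CPM, did not pass (edgeR adjusted p = 0.25). Those that rose were Ly6d (7.04-fold), Sprr2a1, Casp14 and Sfn, and the one that fell was Rptn. Involucrin (Ivl), a protein of cornifying cells, stayed at or below 0.25 CPM in each library. Tgm3, Sprr1a and Sprr2h of the list lay higher in every APC-KI library. Their means were 46.8, 25.1 and 7.92 CPM in APC-KI, against 18.2, 11.1 and 2.20 CPM in APC-WT tumours. Lypd3 and Sbsn lay lower in every APC-KI library. None of these genes passed (edgeR adjusted p between 0.0758 and 0.12).

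The remaining tested keratins gave no call. Krt36 was the most abundant of them, with 75.1, 154 and 75.5 CPM in APC-WT tumours, against 111, 71.9 and 175 CPM in APC-KI (log2 change 0.23 ± 0.40 SE, edgeR adjusted p = 0.703). Krt17 and Krt16, induced in stressed and regenerating epithelium, had log2 changes of −0.34 and −0.43, and Krt17 passed solely in the libraries with 0 Y-linked counts (−1.08, adjusted p = 0.0477), while it was 0.24 without APC-WT replicate 3. The basal keratin Krt15 and the epidermal keratin Krt10 had 0.29 and −0.27, and Krt80, Krt87, Krt83 and Krt78 lay between −0.03 and 0.20. Krt39 stood at −1.07 below 1 CPM. Krt12, the keratin of the corneal epithelium, did not overlap between groups at 0.0450 to 0.262 CPM in APC-WT tumours, against 0.338 to 0.669 CPM in APC-KI, but did not pass (1.58 ± 0.59 SE, adjusted p = 0.101), and 42.0% of its 50-base windows also lie in the transcript A830036E02Rik.

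Krt222 (ENSMUSG00000035849) is an atypical type I member with an open reading frame of 885 bases. It held 4, 2 and 7 counts in APC-WT and 21, 33 and 16 counts in APC-KI. All APC-KI libraries were higher, from few counts. Krt222 rose by a log2 change of 2.53 ± 0.55 SE (edgeR adjusted p = 0.0244). It passed the filter on low counts through APC-KI alone, so it had to be higher there to be tested. Leaving out any of APC-WT replicates 1 and 2 and APC-KI replicates 1 and 2 gave an adjusted p between 0.0677 and 0.0832, and Krt222 did not pass in the libraries with 0 Y-linked counts (1.72, adjusted p = 0.249). The untested Krt88 had 34 counts in APC-WT and 15 in APC-KI, a ratio of 2.23 per total count (exact 95% binomial interval 1.18 to 4.40, counting error only), and 27 of the 34 came from APC-WT replicate 1, without which the ratio was 0.734 (0.253 to 1.91). Krt79 had 33 and 9 counts, a ratio of 3.60 (1.69 to 8.56). Of the 33, 20 came from APC-WT replicate 2, without which the ratio was 2.09 (0.825 to 5.53).

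Types were set by chromosome, with Krt18 counted as type I, and were then compared with sequence. Over the longest open reading frames, the type I members other than Krt18 were 56.7% to 64.9% identical to Krt18 and at most 57.8% to Krt8. The type II members other than Krt8 were 61.2% to 69.8% identical to Krt8 and at most 58.7% to Krt18. Each of the 17 type I members was closer to Krt18 and each of the 13 type II members closer to Krt8. Krt222 was nearly tied, at 56.7% to Krt18 and 56.0% to Krt8. By that rule type I members lie on chromosome 11 except Krt18, which lies with the type II genes on chromosome 15. Called genes of both directions occurred in both types, with Krt19, Krt20 and Krt222 higher and Krt23 and Krt34 lower in type I, and Krt8 higher and Krt4 and Krt90 lower in type II.

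**Figure D5:**
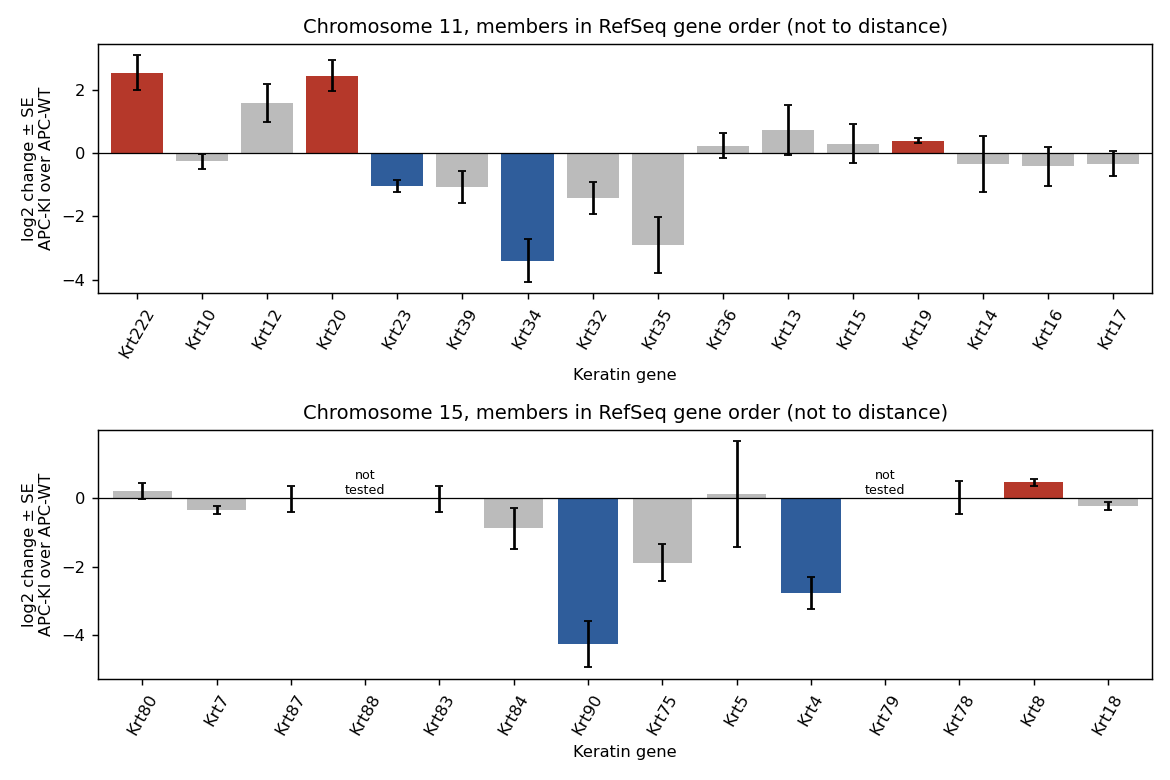
Fitted log2 change with its standard error for the members on chromosome 11 (top, 16 genes) and chromosome 15 (bottom, 14 genes), placed in RefSeq gene order and not to distance. Red and blue bars passed the threshold, grey bars did not. Krt20 and Krt23 stand side by side with changes of 2.44 and −1.06.

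Genes of the junctions that anchor keratins were also tested. Of 16 desmosomal genes 13 were tested, 2 rose and 2 fell, with a median of 0.16. Perp, a tetraspan protein of desmosomes, rose 1.96-fold and the plakophilin Pkp2 1.41-fold, while Pkp1 fell 1.95-fold with Dsg4 (adjusted p between 0.00517 and 0.0422). Desmoplakin (Dsp), which ties keratins to the desmosome, did not pass at 0.28 (adjusted p = 0.0665). Of 6 hemidesmosomal genes 2 rose and 0 fell, namely plectin (Plec), the linker of keratins to the basal attachment, by 1.73-fold and Dst by 2.19-fold. Both also occur in muscle and other cells, and the summed smooth muscle list was 241 to 545 CPM in APC-WT tumours, against 1084 to 1727 CPM in APC-KI, whose part in these values was not tested. Of 8 tested plakins and keratin regulators 0 rose and 2 fell, periplakin (Ppl) 1.96-fold and caspase 6 (Casp6), which cleaves type I keratins, 1.67-fold.

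Other intermediate filament genes gave 3 higher and 1 lower of 12 tested. Synm rose 4.36-fold, Des 5.87-fold and Prph 3.66-fold, genes of muscle and peripheral neurons, and Nefm fell (log2 change −1.19, edgeR adjusted p = 0.0326). Vimentin, the filament of mesenchymal cells, did not pass (Vim log2 change −0.24, adjusted p = 0.328). Of 9 fibroblast markers 4 rose and 0 fell, with sums of 963 to 2562 CPM in APC-WT tumours, against 3024 to 4140 CPM in APC-KI. Their part in the vimentin value was not tested. Mesothelial cells, which share Krt7, Krt8, Krt18 and Krt19 with simple epithelium, had 8 listed markers with 4 tested, 1 higher and 0 lower, and summed to 9.71 to 39.6 CPM in APC-WT tumours, against 11.1 to 23.5 CPM in APC-KI.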

How the data were processed

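RNA sequencing libraries of 6 mouse colon tumours (3 APC-WT, 3 APC-KI) were analysed, with groups taken from the sample titles. Stranded TruSeq libraries were used per the labels' protocols. The submitters' processing notes name STAR, Trim Galore 0.6.4, DESeq2 1.37.6 and cutadapt 2.5, and the builds mm10 and GRCm38. No role of any tool, no counting tool or strand setting and no annotation release is given in the sources used here. The authors deposited raw whole-number counts per Ensembl gene, per the file headers and values.

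Symbols came from GENCODE M21, which named 52093 of 53700 identifiers. Its identifier versions matched the table's for 35 genes, so another release was counted, and RPKM, which rests on M21 transcript lengths, is approximate. Genes were filtered with filterByExpr, scaled with TMM and tested with edgeR 4.0.16 (robust quasi-likelihood, group alone) in R 4.3.3, with Benjamini-Hochberg adjustment over 19127 genes and a threshold of 0.05. The standard error is the log2 change divided by the square root of the F statistic. CPM used TMM-scaled library sizes. Replicate libraries were all distinct, with a chi-square per gene of 39.5 to 113.6 between pairs. Alternatives were RLE factors, library totals, pan-epithelial scaling, DESeq2 1.42.0, limma-voom 3.58.1, dropping the filter or asking for a CPM above 1 in 3 libraries, the replicate block, each library left out, and the 4 libraries with 0 Y-linked counts.

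The named keratins were all members with adjusted p under 0.05 and Krt7, Krt8, Krt18, Krt19, Krt20 and Krt23, with the rest given in brief, and from other lists up to 3 genes with the smallest p. Dsg4, Dsp, Krt8-ps, Krt31, Krt81, Krt86, Trp63, Ivl, Vim, Casp14, Sfn, Serpinb5 and Nefm were named after their values were seen. So were Tgm3, Sprr1a, Sprr2h, Lypd3, Sbsn, Foxn1, Tchh and Padi3. The members and lists were chosen with earlier results of these data known. Open reading frames were aligned with Biopython 1.88.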

Additional observations from a re-analysis of the deposited data

How the results depend on the processing

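Across 15 alternatives, the single log2 changes of the tested keratins and of Tcf7l2 kept their side of the threshold and did not change sign in 346 values, apart from Krt78, whose change of 0.00 has no direction. Another 40 no longer passed, 14 newly passed and 26 changed sign, all of keratins that did not pass in either fit. In the 4 libraries with 0 Y-linked counts these were Krt13 (−0.37), Krt80 (−0.094), Krt83 (0.98), Krt84 (0.92) and Krt5 (−1.01). With limma-voom they were Krt14 (0.21), Krt87 (0.14), Krt83 (0.072) and Krt5 (−0.52), and with the replicate block Krt87 (0.11), Krt83 (0.066) and Krt5 (−0.12). Leaving out 1 library gave log2 changes from −0.16 to 0.66 for Krt36, −0.07 to 0.79 for Krt15, −0.97 to 0.39 for Krt14, −0.91 to 0.14 for Krt16, −0.63 to 0.24 for Krt17, −0.33 to 0.47 for Krt87, −0.35 to 0.18 for Krt83 and −1.95 to 1.38 for Krt5. Main numbers of calls were 4 keratins higher and 4 lower, and 2388 and 1459 of all genes. Scaled to pan-epithelial counts they were 2 and 7 keratins, with 3474 genes lower. Library totals gave 2844 genes lower and DESeq2 2230. With the replicate block 0 keratins were higher (4 at an unadjusted p under 0.05) and 3 lower, with 1195 genes higher and 465 lower. The libraries with 0 Y-linked counts gave 0 and 2 keratins and 178 and 152 genes. Leaving out 1 library gave 0 to 4 keratins higher and 1 to 7 lower, with 788 to 2542 genes higher and 300 to 1595 lower. Without APC-WT replicate 3 or APC-KI replicate 3, 4 keratins were still higher, and 7 and 6 were lower. Why the numbers differed among these fits was not tested. Replicate numbers did not pair the samples: deviations of same-numbered libraries correlated across genes at 0.035, −0.068 and −0.182. Krt34, Krt222, Krt75, Krt88 and Krt79 had under 120 counts each, which limits their precision.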
